A study of Mus musculus with 6 samples.

Results

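Acute phase proteins are plasma proteins that the liver makes in larger or smaller amounts when tissue is injured or infected. The 10 genes described here are Saa1, Saa2, Saa3 and Saa4 (serum amyloid A), Orm1, Orm2 and Orm3 (orosomucoid, also called alpha-1-acid glycoprotein), Lcn2 (lipocalin 2), Hp (haptoglobin) and Apcs (serum amyloid P). They were chosen by symbol, and all 10 had 1 row each among the 32212 rows of the deposited count table. The liver tissue came from male C57BL/6 mice of 2 yr on normal chow, with 3 WT mice and 3 CgA-KO mice, which lack chromogranin A (CgA), the prohormone encoded by Chga. The libraries were made from poly(A) RNA of about the same amount of tissue, 1 library per labelled replicate. The genotype of the CgA-KO mice could not be checked from its own gene, since Chga had 0 counts in every library of both genotypes. How the Chga allele was disrupted is not described in the labels.

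In mice, the cytokines IL-6, IL-1 and TNF released by macrophages act on hepatocytes, where STAT3, C/EBP and NF-kB factors raise transcription of the acute phase genes. Serum amyloid A proteins ride on high-density lipoprotein, orosomucoids and lipocalin 2 carry small lipophilic molecules, haptoglobin binds free hemoglobin, and serum amyloid P is a pentraxin that binds microbial surfaces and amyloid. Lcn2 is also stored in neutrophil granules, and Saa3 is also made by macrophages and fat cells.

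Library totals ranged from 10558616 to 31087453 counts. Levels are in CPM, a gene's count relative to its library total after TMM scaling (trimmed mean of M values). Genotype differences were tested over 13867 genes in a quasi-likelihood fit of edgeR, and p-values were adjusted by the Benjamini-Hochberg method. The error of a mean is the SD over 3 livers, the SE of a log2 fold change is approximate, and an adjusted p-value under 0.05 is a call. The lowest count of any of the 10 genes in any library was 53, while 3 counts correspond to between 0.0951 and 0.269 CPM, so every gene passed the filter on low counts in both genotypes. The 12 hepatocyte markers, led by Alb, were high in every library, with a summed level between 51098 and 100216 CPM, and 0 of them were called.

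Of the 10 acute phase genes, 3 were called, all higher in CgA-KO livers: Lcn2, Orm3 and Orm2. Among all genes tested, 12.4% were called, 8.60% as higher and 3.84% as lower. The same 3 genes were those in which every CgA-KO library lay above every WT library, a separation that 33.6% of all genes tested showed, 19.0% in that direction and 14.6% in the other. The remaining 7 genes overlapped between the genotypes, and 0 of the 10 were called lower. The median log2 fold change of the 10 genes was 0.06, beside -0.01 for all genes tested. With counts scaled by library size alone the median of all genes moved to 0.26, and the 3 calls were the same.

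**Figure D1:**
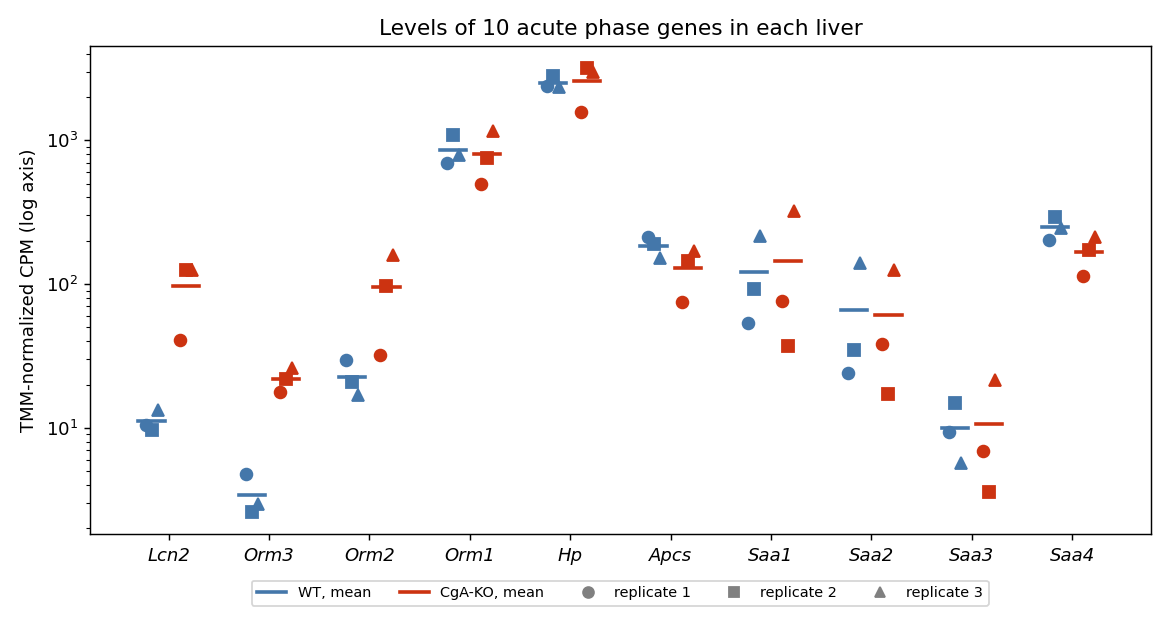
Level of each acute phase gene in each of the 6 livers, in TMM-normalized CPM on a log axis. Points are single libraries, with the shape giving the replicate number of the labels, and lines are means over 3 livers. Only in Lcn2, Orm3 and Orm2 do all CgA-KO points lie above all WT points, with the lowest CgA-KO value of Orm2 (32.0 CPM) close to its highest WT value (29.8 CPM).

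Lcn2, an iron-siderophore carrier, differed most between the genotypes. It lies on chromosome 2 of GRCm38 from 32384633 to 32388252 on the minus strand. The stretch around its start site is shown because Lcn2 had the largest fold change of the 10 genes. It is the RefSeq window chr2:32387690-32387989 (GRCm38.p6, minus strand), 250 bases before the RefSeq start site and 50 after it, and RefSeq start sites can differ from the GENCODE gene ends given here. The C/EBP motif TTNNGNAA was looked for on either strand, and its match here, on the strand opposite to the one printed, is in capitals:
Lcn2: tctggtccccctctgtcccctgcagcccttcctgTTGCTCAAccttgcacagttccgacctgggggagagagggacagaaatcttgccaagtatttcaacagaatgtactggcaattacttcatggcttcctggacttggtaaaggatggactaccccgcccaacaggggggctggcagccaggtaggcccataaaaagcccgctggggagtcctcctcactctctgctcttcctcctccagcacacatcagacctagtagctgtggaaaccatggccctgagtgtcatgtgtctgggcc
WT replicates 1, 2 and 3 had Lcn2 levels of 10.4, 9.61 and 13.3 CPM, against 41.0, 126 and 125 CPM in CgA-KO replicates 1, 2 and 3. All CgA-KO livers were above all WT livers, and the lowest CgA-KO value was 3.07-fold the highest WT value. CgA-KO replicate 1 stood below the other CgA-KO livers, which were nearly equal. The mean of WT livers was 11.1 ± 1.97 CPM and that of CgA-KO livers 97.4 ± 48.8 CPM (SD, n = 3 each). The log2 fold change was 3.13 (SE 0.415, edgeR adjusted p = 0.00484), or 8.75-fold, with a 95% interval from 2.19 to 4.07. Leaving out each of the 6 libraries in turn did not end the call, with a log2 fold change between 2.93 and 3.53 and an edgeR adjusted p of at most 0.0446.

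Since neutrophils and macrophages can also carry Lcn2 RNA, their markers were read in the same libraries. Of all genes tested, 8.60% were called higher in CgA-KO livers. Of 14 neutrophil markers, 9 passed the filter and 6 were called, all higher. Among the 9, Ngp, Mmp8 and Retnlg had at most 13 counts in any WT library. They passed the filter only through the CgA-KO libraries, so their direction was fixed in advance. The summed level of the 14 markers was 19.3, 16.1 and 10.2 CPM in the WT livers and 80.5, 408 and 67.1 CPM in CgA-KO replicates 1, 2 and 3. The peak in CgA-KO replicate 2 came with granule genes that were close to absent elsewhere: Mpo had 2107 counts there, 15 in CgA-KO replicate 3 and 0 in the other libraries. The defining marker Ly6g had between 0 and 16 counts per library. Lcn2 was as high in CgA-KO replicate 3 as in replicate 2, and without CgA-KO replicate 2 its log2 fold change was 2.94 (edgeR adjusted p = 0.0207). That fit does not remove the neutrophil difference, since CgA-KO replicates 1 and 3 also lay above all WT livers in summed neutrophil markers. Of 12 macrophage markers, all tested, 10 were called and higher in CgA-KO livers. Their summed level was between 143 and 380.03 CPM in WT livers and was 1934, 1662 and 1410 CPM in CgA-KO replicates 1, 2 and 3. Single markers of this list differed in which CgA-KO liver was highest. The part of either cell type in the Lcn2 difference was not tested, and in bulk tissue a change in the number of cells cannot be told apart from a change in RNA per cell.

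Orm1, Orm2 and Orm3 encode plasma carriers of basic and neutral lipophilic compounds. They stand in the order Orm1, Orm3, Orm2 on the plus strand of chromosome 4 of GRCm38, at 63344560 to 63348163, 63356162 to 63359511 and 63362449 to 63365878. Each has a transcript of 6 exons. Because close paralogs can exchange reads in transcript quantification, the coding sequences of the 3 genes were aligned, and 107 of 621 aligned positions differed among them. The stretch of 60 bases with the most differences, 25 positions, is shown to make plain how far reads can tell the genes apart, with the differing positions in capitals (GENCODE transcripts, counted from the start codon at bases 138 to 197 in Orm1 and Orm2 and 135 to 194 in Orm3):
Orm1: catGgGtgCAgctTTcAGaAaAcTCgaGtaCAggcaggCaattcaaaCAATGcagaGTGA
Orm2: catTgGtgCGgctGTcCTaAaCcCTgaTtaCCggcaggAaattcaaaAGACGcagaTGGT
Orm3: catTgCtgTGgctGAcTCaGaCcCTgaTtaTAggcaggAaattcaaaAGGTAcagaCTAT
Over whole transcripts, Orm1 and Orm2 were identical at 705 of 775 aligned bases (91.0%), and Orm3 was identical to Orm1 at 86.5% and to Orm2 at 88.5% of aligned bases. Of the 676 windows of 100 bases in Orm2, the length of 1 read, 47 (6.95%) also occurred in Orm1 and 0 in Orm3.

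Orm3, the gene with the lowest level of the 10 genes in WT livers, was at 4.75, 2.60 and 2.96 CPM in WT replicates 1, 2 and 3 and at 17.6, 21.8 and 26.2 CPM in CgA-KO replicates 1, 2 and 3. The genotypes were far apart for this gene, and its lowest CgA-KO value was 3.72-fold its highest WT value. The means were 3.44 ± 1.15 and 21.9 ± 4.29 CPM (SD, n = 3 each), with a log2 fold change of 2.70 (SE 0.287, edgeR adjusted p = 0.00296), or 6.48-fold. Without each library in turn the log2 fold change was between 2.53 and 3.01, and the edgeR adjusted p was at most 0.0168.

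Orm2 was at 29.8, 20.8 and 16.9 CPM in the WT livers and at 32.0, 96.3 and 159 CPM in CgA-KO replicates 1, 2 and 3. CgA-KO replicate 1 exceeded the highest WT liver only 1.07-fold, while the other CgA-KO livers were well above it. The means were 22.5 ± 6.61 and 95.7 ± 63.3 CPM (SD, n = 3 each), and the log2 fold change was 2.09 (SE 0.502, edgeR adjusted p = 0.0290), or 4.26-fold. This call depended on which livers were included and on the filter. In 5 of 6 fits without a library it was lost, with edgeR adjusted p-values between 0.0576 and 0.177. It was also lost with a filter on a total of at least 1 count (edgeR adjusted p = 0.119). Without CgA-KO replicate 1 it held (edgeR adjusted p = 0.0137), with a log2 fold change of 2.54, and without CgA-KO replicate 3 the log2 fold change was 1.54.

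Orm1, by far the most abundant orosomucoid RNA in these livers, was at 699.9, 1083 and 792 CPM in the WT livers and at 495, 752 and 1165 CPM in the CgA-KO livers. The lowest and the highest of these 6 values were both from CgA-KO livers, and the genotypes overlapped. The means were 858 ± 199.9 and 804 ± 338 CPM (SD, n = 3 each), with a log2 fold change of -0.09 (95% interval from -0.87 to 0.68, edgeR adjusted p = 0.888). The interval does not reach the changes of Orm2 and Orm3.

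The make-up of the orosomucoid pool differed between the genotypes while its size was not seen to differ. Orm1 gave 95.3%, 97.9% and 97.5% of all Orm counts in the WT livers and 90.9%, 86.4% and 86.3% in the CgA-KO livers. Orm2 gave 1.88% to 4.06% of them in WT livers against 5.87% to 11.8% with CgA-KO, and Orm3 0.235% to 0.646% in WT livers against 1.94% to 3.24% with CgA-KO. None of these 3 shares overlapped between the genotypes (p = 0.1 in an exact two-sided permutation test of each share, which is the lowest value possible with 3 livers per genotype). The shares are parts of a whole and restate the Orm2 and Orm3 differences given above, so they are not separate results. Added together, the 3 genes were at 734, 1106 and 812 CPM in WT and at 545, 870.3 and 1349.6 CPM in CgA-KO livers, with a log2 fold change of 0.06 (SE 0.350, edgeR adjusted p = 0.933).

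**Figure D2:**
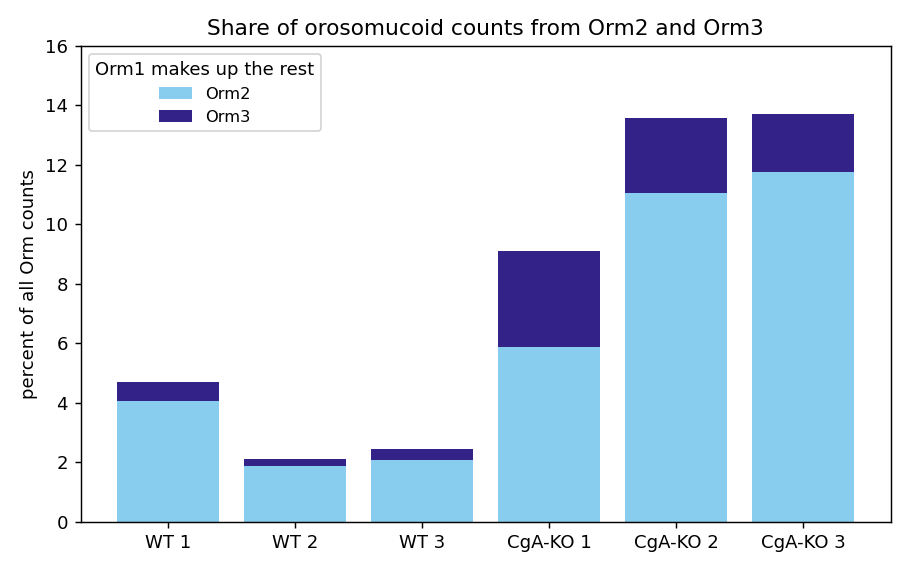
Percent of all counts of Orm1, Orm2 and Orm3 that came from Orm2 (light) and Orm3 (dark) in each of the 6 libraries, as stacked bars from 0. Orm1 is the part not drawn. The combined share is larger in each CgA-KO library than in each WT library, and CgA-KO replicate 1 is the lowest of the CgA-KO libraries, with 5.87% from Orm2 and 3.24% from Orm3.

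The start sites of the genes that rose in the family are shown because Orm2 and Orm3 moved in the same direction. They are the RefSeq windows chr4:63362199-63362498 for Orm2 and chr4:63355908-63356207 for Orm3 (GRCm38.p6, plus strand), of the same extent as for Lcn2. Capitals mark matches to the C/EBP motif TTNNGNAA on either strand and to the TATA motif TATAAAA on the gene's own strand:
Orm2: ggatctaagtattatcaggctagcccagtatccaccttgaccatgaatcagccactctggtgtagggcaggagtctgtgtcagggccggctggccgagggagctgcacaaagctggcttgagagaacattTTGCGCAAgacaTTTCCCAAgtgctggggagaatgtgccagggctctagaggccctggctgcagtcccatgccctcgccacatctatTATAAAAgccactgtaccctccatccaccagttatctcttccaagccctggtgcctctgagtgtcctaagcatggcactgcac
Orm3: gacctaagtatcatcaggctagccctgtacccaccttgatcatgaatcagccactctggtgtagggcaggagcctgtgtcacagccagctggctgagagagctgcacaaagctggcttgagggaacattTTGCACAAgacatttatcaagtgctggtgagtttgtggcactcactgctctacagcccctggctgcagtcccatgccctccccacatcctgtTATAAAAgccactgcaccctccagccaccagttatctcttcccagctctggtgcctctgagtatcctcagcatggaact
Both windows held the TATA letters, which 3.27% of 32851 promoter windows in the RefSeq table hold, and both held a C/EBP match, as 40.7% of all windows do. In Orm2 the C/EBP matches were TTGCGCAA and, overlapping no other match, TTTCCCAA. Orm3 held TTGCACAA. The motifs were also looked for in the windows of Saa1, Saa2, Saa3, Saa4 and Apcs, so that 8 genes were matched to the table; Orm1 and Hp had no entry. The C/EBP motif was found in all of these but Apcs. The STAT motif TTCNNNGAA, held by 8.30% of all windows, was found in Apcs alone, and an NF-kB motif, held by 0.411%, in none of the 8. These matches describe letters in these windows and say nothing of what bound there.

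Saa1 and Saa2 encode the serum amyloid A forms that rise most in an acute phase response. They lie head to head on chromosome 7 of GRCm38, Saa1 from 46740497 to 46742980 on the minus strand and Saa2 from 46751790 to 46754313 on the plus strand. Older names of the genes are crossed: RefSeq lists Saa2 as a synonym of Saa1 and the reverse. Their start sites are shown to make visible how alike these genes are, as the RefSeq windows chr7:46742931-46743230 (minus strand) and chr7:46751583-46751882 (plus strand) of GRCm38.p6. Of 299 aligned bases, 287 (96.0%) were identical, and capitals mark bases that differ or have no partner:
Saa1: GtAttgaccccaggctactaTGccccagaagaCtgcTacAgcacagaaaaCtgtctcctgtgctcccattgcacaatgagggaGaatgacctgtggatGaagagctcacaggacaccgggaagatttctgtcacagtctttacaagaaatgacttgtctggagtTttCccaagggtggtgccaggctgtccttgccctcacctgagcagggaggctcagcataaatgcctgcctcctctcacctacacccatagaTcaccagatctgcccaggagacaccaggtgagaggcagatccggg
Saa2: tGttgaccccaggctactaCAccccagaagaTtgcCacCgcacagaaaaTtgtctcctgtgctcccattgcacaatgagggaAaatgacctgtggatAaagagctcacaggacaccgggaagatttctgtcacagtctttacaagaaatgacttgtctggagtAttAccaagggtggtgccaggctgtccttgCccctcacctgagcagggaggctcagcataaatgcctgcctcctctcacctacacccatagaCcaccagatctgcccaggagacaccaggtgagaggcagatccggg
The transcripts were identical at 572 of 606 aligned bases (94.4%), with 0 windows of 100 bases in common.

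Saa1 was at 54.0, 91.9 and 217 CPM in WT replicates 1, 2 and 3 and at 76.5, 37.0 and 319.95 CPM in CgA-KO replicates 1, 2 and 3. For Saa2 these levels were 24.0, 34.5 and 139 CPM in WT and 38.1, 17.3 and 126 CPM in CgA-KO livers. In each genotype replicate 3 was high and the other livers were low, and the genotypes overlapped. The highest liver was 4.02-fold the lowest in WT and 8.64-fold in CgA-KO for Saa1, and 5.81-fold and 7.29-fold for Saa2, where the medians over all genes tested were 1.52-fold in WT and 1.43-fold in CgA-KO livers. The SD of log2 CPM within a genotype, pooled over both, was 1.33 for Saa1 and 1.39 for Saa2, and only 1.28% of all genes tested were more variable than Saa2.

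With this spread, the genotype difference of Saa1 was 0.25 on the log2 scale (95% interval from -1.44 to 1.95, edgeR adjusted p = 0.858), and that of Saa2 was -0.13 (95% interval from -1.90 to 1.64, edgeR adjusted p = 0.934). Neither interval excludes a change of several-fold in either direction. Summed to be free of any exchange of reads between them, the genes were at 78.0, 126 and 357 CPM in WT and at 115, 54.4 and 446 CPM in CgA-KO livers, with a log2 fold change of 0.13 (SE 0.760, edgeR adjusted p = 0.932). The sign of this value rested on single livers: it was -1.13 without CgA-KO replicate 3 (edgeR adjusted p = 0.311) and 1.00 without WT replicate 3 (edgeR adjusted p = 0.577). Saa1 gave 60.9% to 72.7% of the summed counts in WT livers, a range that held all CgA-KO values (66.8% to 71.7%) (exact two-sided permutation test, p = 0.9).

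Saa3, which in mice is made by macrophages and fat cells as well as by the liver, lies at 46711998 to 46715700 on the same chromosome. Its level was 9.40, 14.9 and 5.68 CPM in WT and 6.92, 3.58 and 21.4 CPM in CgA-KO livers. Replicate 3 was the highest of the CgA-KO livers, as for Saa1 and Saa2, but the lowest of the WT livers. The log2 fold change was 0.08 (SE 0.600, edgeR adjusted p = 0.946). All CgA-KO livers had more summed macrophage marker RNA than any WT liver, while Saa3 lay inside the WT range in CgA-KO replicate 1, below it in replicate 2 and above it in replicate 3. The part of macrophages in the Saa3 level was not tested. Of 8 adipocyte markers, 3 passed the filter and 0 were called, Lep had 0 counts throughout, and Adipoq had at most 1 count in any library.

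Saa4 is the form that is made without an acute phase stimulus. It lies at 46727998 to 46732603 on chromosome 7, between Saa3 and Saa1. Saa4 was at 203, 295 and 247 CPM in WT and at 113, 171 and 214 CPM in CgA-KO livers, so that only CgA-KO replicate 3 reached into the WT range. The means were 248 ± 45.9 and 166 ± 50.6 CPM (SD, n = 3 each), a log2 fold change of -0.58 (SE 0.275) that was not called (edgeR adjusted p = 0.202).

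Hp, on chromosome 8 from 109575128 to 109579172, made up most of the RNA of the 10 genes, between 56.3% and 69.8% of their counts in a library. Its level was 2392, 2786.5 and 2347 CPM in WT and 1581, 3173 and 3001 CPM in CgA-KO livers. CgA-KO replicate 1 was below all WT livers and the other CgA-KO livers were above them. The means were 2508 ± 242 and 2585 ± 874 CPM (SD, n = 3 each), with a log2 fold change of 0.04 (95% interval from -0.68 to 0.77, edgeR adjusted p = 0.947).

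Apcs, a major acute phase reactant of the mouse, lies on chromosome 1 from 172893961 to 172895041. It was at 212, 189.8 and 152 CPM in WT and at 75.0, 146 and 169 CPM in CgA-KO livers. CgA-KO replicate 1 was lowest and the genotypes overlapped. The log2 fold change was -0.51 (SE 0.306, edgeR adjusted p = 0.314).

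**Figure D3:**
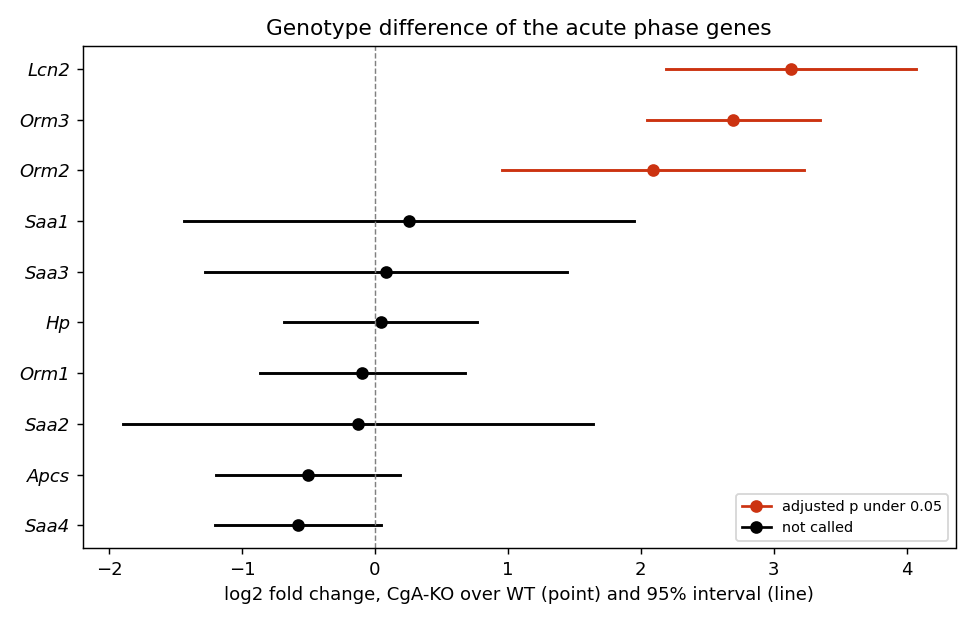
Log2 fold change of CgA-KO over WT for the 10 acute phase genes (points) with approximate 95% intervals (lines) from edgeR's quasi-likelihood fit. Lcn2 (3.13), Orm3 (2.70) and Orm2 (2.09) were called, and the intervals of the other genes include 0, with the widest for Saa1 and Saa2.

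The order of the CgA-KO livers was read over these 10 genes. It was not read over all genes tested, so it is not shown to be particular to these genes. CgA-KO replicate 1 was the lowest of the CgA-KO livers in 7 of the 10 genes and the highest in 0. CgA-KO replicate 3 was the highest in 8, all but Lcn2 and Hp, and the lowest in 0. In the paralogs Saa1, Saa2 and Saa3 the lowest was CgA-KO replicate 2. In WT, replicates 1, 2 and 3 were highest in 3, 4 and 3 of the genes. Together the 10 genes took 0.385%, 0.342% and 0.367% of all counts in WT and 0.278%, 0.4998% and 0.576% in CgA-KO livers (exact two-sided permutation test, p = 0.4).

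Levels were also ordered per kilobase of transcript, so that genes could be set beside each other. In WT livers mean Hp (1865 CPM per kb) and Orm1 (1107) led, followed by Saa1 (199), Apcs (189.9), Saa4 (119), Saa2 (109), Orm2 (29.1), Saa3 (18.0), Lcn2 (12.1) and Orm3 (4.44). Among neighbours in this order, the libraries of Saa1 and Apcs, Saa4 and Saa2, Orm2 and Saa3, and Saa3 and Lcn2 overlapped. In CgA-KO livers the means of Orm2 (123 CPM per kb) and Lcn2 (106) stood above Saa2 and Saa4, close to Apcs (134) and Saa2 (99.9). All neighbours from Saa1 down to Saa4 overlapped there, as did Hp with Orm1 and Orm3 with Saa3.

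The other acute phase genes of the liver were read from a list. Of 22 positive acute phase genes besides these 10, 21 were tested, with a median log2 fold change of 0.09. Among these 21, 4 were called higher, 0 lower and 17 not called, while 8.60% of all genes tested were called higher and 3.84% lower. The 4 were Cd14, the lipopolysaccharide co-receptor, with a log2 fold change of 2.67 (SE 0.350), the metallothioneins Mt2 (2.80, SE 0.658) and Mt1 (2.05, SE 0.555), and the serpin Serpina3m (1.02, SE 0.261), with edgeR adjusted p-values between 0.00475 and 0.0443. Cd14 was low, at 1.31 to 1.88 CPM in WT and 6.36 to 13.7 CPM in CgA-KO livers, and the part of macrophages in it was not tested. Mt1 was at 140, 645 and 149 CPM in CgA-KO replicates 1, 2 and 3, beside 72.4 to 79.2 CPM in WT. Mt2 was at 77.8, 392 and 74.0 CPM in these replicates, beside 17.6 to 37.5 CPM in WT. For both metallothioneins CgA-KO replicate 2 stood apart. Serpina3m belongs to a cluster of close paralogs. Every CgA-KO library lay above every WT library in 19.0% of all genes tested, and below in 14.6%. Here that held for 8 of the 21 genes, and the reverse for 0. Besides the 4 called genes these were Cp (ceruloplasmin, a copper carrier), Itih3 (an inter-alpha-trypsin inhibitor chain), Lbp (lipopolysaccharide-binding protein) and C3 (complement), with log2 fold changes from 0.42 to 0.66 that were not called (edgeR adjusted p-values from 0.122 to 0.286). Crp, a pentraxin that responds little in mice, was at 222 to 275 CPM in WT and 142 to 262 CPM in CgA-KO livers (log2 fold change -0.36, edgeR adjusted p = 0.395). Of 10 negative acute phase genes, which fall in an acute phase response, 0 were called, with a median of -0.11.

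Cytokine genes upstream of the response were low in these livers. Il6 had 1, 0 and 1 counts in the WT libraries and 13, 4 and 3 in the CgA-KO libraries and did not pass the filter. Il1b was at 3.13, 3.53 and 1.06 CPM in WT and at 18.2, 8.05 and 14.3 CPM in CgA-KO livers, without overlap between them (log2 fold change 2.41, SE 0.470, edgeR adjusted p = 0.0149). Il1a rose by 1.77 on the log2 scale (edgeR adjusted p = 0.0183), as did Il1rn, the IL-1 receptor antagonist, by 1.93 (edgeR adjusted p = 0.0122). Osm, an IL-6 family cytokine, was called higher (edgeR adjusted p = 0.0147) on 9, 31 and 12 counts in CgA-KO libraries beside 0, 1 and 0 in WT. Osm passed the filter only through the CgA-KO libraries, so its direction was fixed in advance. For Tnf, the log2 fold change of 2.13 was not called (edgeR adjusted p = 0.118).

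Among receptors and factors of the same list, Socs3, a feedback inhibitor that STAT3 induces, was at 10.6, 7.66 and 9.74 CPM in WT and at 15.3, 34.6 and 16.8 CPM in CgA-KO livers (log2 fold change 1.26, SE 0.326, edgeR adjusted p = 0.0380). Nfkb1 (0.76) and Nfkb2 (1.17), subunits of NF-kB, were called higher, and Lifr, the receptor of leukemia inhibitory factor, was called lower (-0.76), with edgeR adjusted p-values between 0.0337 and 0.0425. Stat3 (0.34, edgeR adjusted p = 0.260), Cebpb (-0.01, edgeR adjusted p = 0.991) and Cebpd (0.80, edgeR adjusted p = 0.120) were not called. In all, 27 of the 29 genes of IL-6 and IL-1 signalling were tested, of which 7 were called higher, 1 lower and 19 not called, with a median log2 fold change of 0.45. Among all genes tested 8.60% were called higher. The CgA-KO libraries lay all above the WT libraries in 11 of the 27 and all below in 3, beside 19.0% and 14.6% of all genes tested. The 3 were Lifr and the IL-1 receptor chains Il1r1 and Il1rap. Neither chain was called (Il1r1 -1.17, edgeR adjusted p = 0.0681, and Il1rap -0.67, edgeR adjusted p = 0.106). The summed level of this list was 1203, 1401 and 1461 CPM in WT and 1154, 1392 and 1078 CPM in CgA-KO livers. The summed macrophage markers were between 143 and 380.03 CPM in WT and between 1410 and 1934 CPM in the CgA-KO livers. Their part in this list was not tested.

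Proteins that bind or clear the acute phase proteins were read last. Of 15 genes, all tested, 8 were called, all higher with CgA-KO, where 8.60% of all genes tested were called higher. The median log2 fold change over the 15 was 2.26. Hmox1, heme oxygenase, which degrades the heme of hemoglobin, was at 14.8, 15.7 and 12.0 CPM in WT livers and rose to 51.1, 83.8 and 72.4 CPM with CgA-KO (log2 fold change 2.29, SE 0.2295, edgeR adjusted p = 0.00282). Fpr2, a formyl peptide receptor that also binds serum amyloid A, had a log2 fold change of 3.74 (SE 0.693, edgeR adjusted p = 0.0126), and its relative Fpr1 one of 3.41 (edgeR adjusted p = 0.0115). The Toll-like receptors Tlr2 (2.26) and Tlr4 (2.68), the Fc receptors Fcgr1 (3.35) and Fcgr3 (2.77), which bind pentraxins, and Cd5l (3.59), a macrophage product that is also on the macrophage list, were called too, with edgeR adjusted p-values between 0.00322 and 0.0142. These are genes of myeloid cells in large part, and the macrophage markers named above moved with them; their part was not tested. Cd163, the scavenger receptor of haptoglobin-hemoglobin complexes, was at 2.06, 2.51 and 10.5 CPM in WT and 3.62, 19.9 and 10.3 CPM in CgA-KO livers and was not called (edgeR adjusted p = 0.324). Slc22a17, described as a receptor of lipocalin 2, differed by 1.83 on the log2 scale and was not called (edgeR adjusted p = 0.0979).

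**Figure D4:**
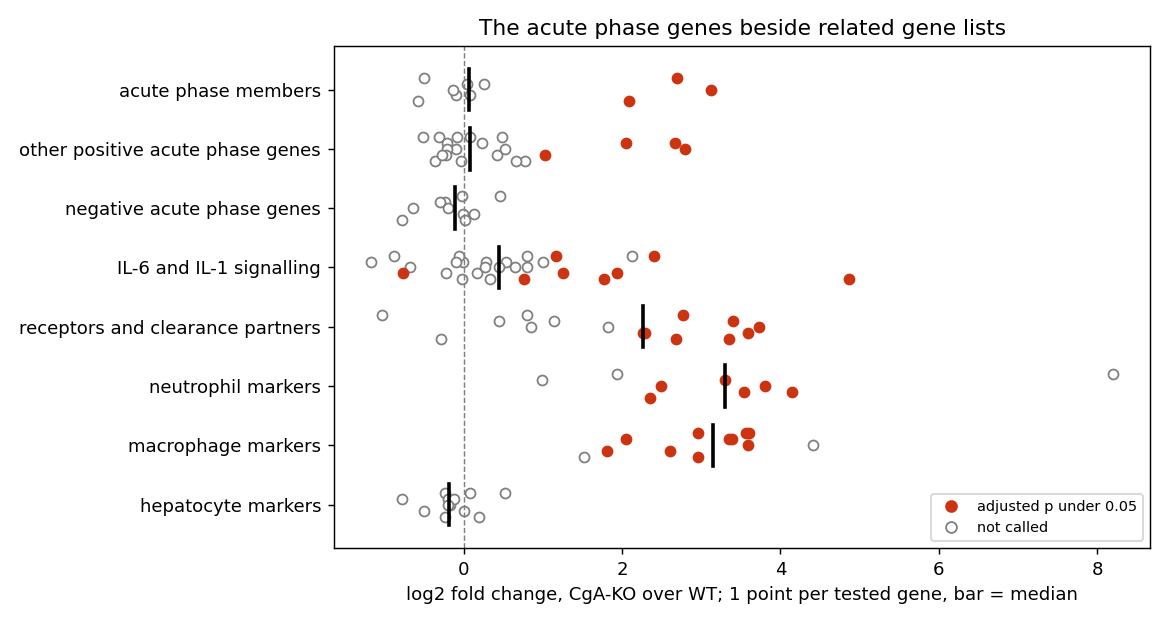
Log2 fold change of CgA-KO over WT for each tested gene of the acute phase members and of 7 other lists, 1 point per gene, with filled points called by edgeR and bars at list medians. The acute phase members (median 0.06), the other positive (0.09) and the negative (-0.11) acute phase genes center near 0, while the receptors (2.26), neutrophil markers (3.30) and macrophage markers (3.16) lie to the right. The points of Osm, Ngp, Mmp8 and Retnlg rest on low WT counts, at most 13 in a library, and Retnlg gives the neutrophil median.

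Genes outside the list with the most similar pattern over the 6 libraries were taken as a description, from 9926 genes with a mean of at least 5 CPM. For Lcn2 these included Npat (Pearson r = 0.995 of log2 CPM), Ccr2 (0.989), Axin2 (0.981) and Ano10 (0.981), and of these 4 only Ccr2, a chemokine receptor of monocytes and also a macrophage marker here, was called between the genotypes. For the mean of Saa1 and Saa2 they were Trappc11 (0.928), Zbtb33 (0.913), Map4k5 (0.909), Aff4 (0.906) and Zfp146 (0.904), none of them called. The range of these genes was narrow beside that of Saa1, as for Trappc11, which lay between 28.3 and 33.8 CPM. The 6 points of each correlation share depth and scaling factors with one another.

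**Figure D5:**
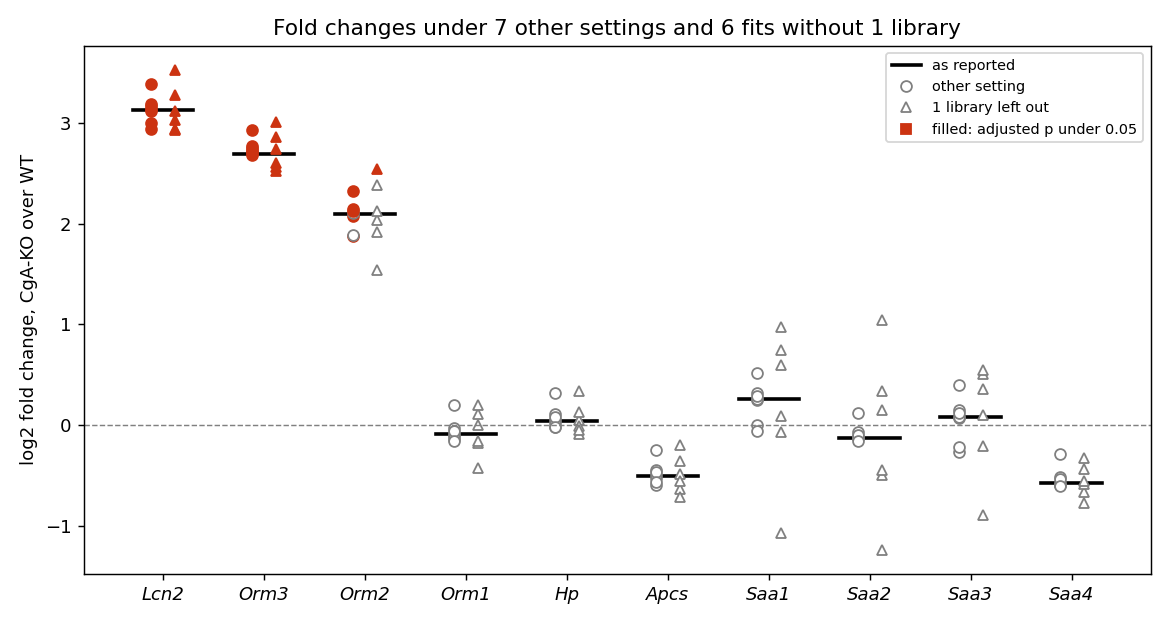
Log2 fold change of CgA-KO over WT of each acute phase gene as reported (black line), under 7 other settings (circles) and in 6 fits that each left out 1 library (triangles), with filled symbols where the adjusted p was under 0.05. Lcn2 and Orm3 are filled throughout, Orm2 in part (from 1.54 to 2.54), and Saa1, Saa2 and Saa3 spread to both sides of 0.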

How the data were processed

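Poly(A) RNA of 6 livers was sequenced as paired 100-base reads. The counts were made by the authors, who quantified transcripts with Salmon 1.4.0 against GRCm38; the deposited table holds whole numbers per gene symbol without scaling, and how transcripts were summed to genes is not given in the sources used here. Of its 32212 rows, 78 repeat an earlier symbol, none of them a gene named here. All 6 columns were matched to a sample by title. Replicates of a genotype differed by more than sampling noise (31.9 to 202 for chi-square over its degrees of freedom) and were kept apart. The labels do not say outright that each library is a separate mouse, although the protocol counts 3 mice per genotype, so the p-values measure the spread between these libraries.

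The tests were run in edgeR 4.0.16 (R 4.3.3): filterByExpr with a minimum count of 10, TMM factors, robust quasi-likelihood fits without covariates, and a two-sided test of genotype with Benjamini-Hochberg adjustment. The SE was taken from the log2 fold change and its F statistic. Floors of 3 counts cover counting error only. Log2 CPM used a prior count of 2. Alternatives were DESeq2 1.42.0, limma-voom (limma 3.58.1), 2 other scalings, 2 other filters, a replicate block and fits without each library. The fits were also run on counts simulated with edgeR's dispersions for these data. The outcome is not reported here, and such counts cannot check the model against these livers. Levels per kilobase used the transcript numbered 201 in GENCODE M21 (GRCm38, the build the authors name). Start-site windows are from RefSeq (GRCm38.p6).

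The members and lists were chosen with earlier results of these data known. All 10 members are named. Of the signalling, other positive, negative and receptor lists, called genes (at most 8 per list) are named, with Il6, Il1b, Tnf, Stat3, Socs3, Cebpb, Cebpd and Crp in any case, and the 5 genes most like Lcn2 and the 5 most like Saa1 and Saa2; 1 of those most like Lcn2 is not reported here. Cp, Itih3, Lbp, C3, Il1r1, Il1rap, Cd163 and Slc22a17 were named after their values were seen. So were the neutrophil markers Mpo, Ngp, Ly6g, Mmp8 and Retnlg and the adipocyte markers Lep and Adipoq. Alb, Apoa1 and Ttr are on both the negative acute phase and the hepatocyte lists. Plots were made in Python 3.11.15 (matplotlib 3.10.9).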

Additional observations from a re-analysis of the deposited data

How the results depend on the processing

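Lcn2 and Orm3 were called higher in CgA-KO livers in all 13 alternatives, with log2 fold changes from 2.93 to 3.53 and from 2.53 to 3.01, while Orm2 kept its direction and was called in 6 of 13. Of the acute phase genes, 3 were called with DESeq2, limma-voom, both other scalings, at least 10 counts in every library and without CgA-KO replicate 1, and 2 in each of the other 7 alternatives, so that leaving out 1 library gave between 2 and 3, all higher. The count over all genes was 1726, and 2592 with DESeq2, where 19693 genes entered the fit. Without 1 library it was 394 to 2126, the lowest without WT replicate 3, for a cause that was not tested. Of the called genes 69.1% were higher, and 86.6% of 1493 with library size alone.

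Small differences changed sign. Values were, with limma-voom, -0.0264 for Saa1 and Saa2 summed, -0.0036 for the 3 Orm genes summed, -0.0016 for Saa1, -0.27 for Saa3 and -0.024 for Hp. With library size alone Saa2 was at 0.12 and Orm1 at 0.20. Without 1 library the ranges were -1.13 to 1.00 for Saa1 and Saa2 summed, -0.29 to 0.37 for Orm summed, -1.07 to 0.98 for Saa1, -1.24 to 1.04 for Saa2, -0.90 to 0.55 for Saa3, -0.43 to 0.20 for Orm1 and -0.0904 to 0.33 for Hp; the cause was not tested. The 10 genes' share of counts was 0.0864 percentage points higher in CgA-KO livers, 0.0238 when CgA-KO replicate 3 was left out and 0.173 when replicate 1 was, the extremes without 1 library.

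Deviations from the genotype means correlated at 0.20, 0.013 and -0.066 between livers of replicate number 1, 2 and 3, and not every liver correlated best with its own number, so the numbers were not taken as pairs. With a replicate block, 1498 genes were called, Orm2 was not (edgeR adjusted p = 0.0966, log2 fold change 1.89), and the values were -0.10 for Saa1 and Saa2 summed, -0.018 for Orm summed, -0.065 for Saa1, -0.22 for Saa3 and -0.016 for Hp. No gene of the 10 lacked depth, and the spread of 3 livers per genotype limits the Saa values.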
